A study of Mus musculus with 14 samples.

Results

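The genes described here are 60 ribosome biogenesis genes, listed by name: RNA polymerase I and its initiation factors (8 genes), 3 abundant nucleolar proteins, the proteins of box C/D (4) and H/ACA (4) snoRNA particles, 20 proteins of the small subunit (SSU) processome, 6 late 40S factors and 15 factors of 60S assembly. No measured value was used to choose them. A row was found for 59 of the 60 among the 52550 genes of the count table, and Riok2, a late 40S kinase, was not analysed here because its current gene ID has no row. The 59 all passed the filter on low counts and were among 16836 genes tested.

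The data are RNA-seq of lung adenocarcinomas from KPY mice, 6 tumors with a control guide (KPY-Ctrl) and 8 with a guide against Setd2 (KPY-Setd2KO), and the comparison asks which genes differ when Setd2, the methyltransferase of histone H3 lysine 36 trimethylation, is targeted. According to the study's methods, the alleles shared by both groups included p53 flox/flox and a Rosa26 LSL-YFP reporter, and tumors were started by intubation with a lentivirus that delivers Cre, Cas9 and the guide, which was sgBGal in the controls. The mice were of mixed B6J/129S4vJae background. Every tumor, control or not, therefore lacked p53 where Cre had acted, and Setd2 was edited only in cells that took up the virus. The methods describe RNA from sorted live YFP-positive cells of dissected tumors, whereas the deposited labels describe RNA of cell lines prepared with other kits; this conflict was not resolved. Age is stated in the study only as an upper limit at tumor initiation. Some tumors shared a mouse that is not named per tumor, so p-values measure the spread between tumors rather than between mice.

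Ribosome production begins in the nucleolus, where RNA polymerase I transcribes ribosomal DNA into a long precursor RNA. The SSU processome folds and cleaves the part of the precursor that becomes 18S rRNA, box C/D and H/ACA particles guide methylation and pseudouridylation, and assembly factors carry the 60S and 40S precursors to the cytoplasm. The pathway is known for its demand in growing cells and for its regulation by Myc and mTORC1.

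The total estimated count was 27866266 to 51828846 per KPY-Ctrl tumor and 20072236 to 40604404 per KPY-Setd2KO tumor. Setd2 was 41.9, 53.8 and 63.6 CPM (lowest, median, highest) in KPY-Ctrl and 17.9, 30.4 and 47.4 CPM in KPY-Setd2KO, so 6 of 8 knockout tumors lay below every control, with a log2 fold change of -0.74 (SE 0.22) and an adjusted p of 0.175 in edgeR and 0.0492 in DESeq2. CPM are counts scaled to the library total after TMM normalization. All 11 epithelial markers checked were detected in every tumor (summed 5768 to 62240 CPM), as were all 12 pan-leukocyte markers (290.3 to 12229 CPM). The leukocyte-marker score, the mean log2 CPM of those 12 genes, was 3.41 to 8.75 in KPY-Ctrl and 3.26 to 9.02 in KPY-Setd2KO. With no score between 5.52 and 8.42, the tumors formed a low set of 7 and a high set of 7, and the high set held 3 KPY-Ctrl and 4 KPY-Setd2KO tumors. Macrophage markers summed to 242 to 60878 CPM. Other lists were lower. T, B and neutrophil markers summed to 12.9 to 32.3 CPM in KPY-Ctrl and 22.3 to 59.5 CPM in KPY-Setd2KO, and 3 of the 6 tested had an unadjusted p under 0.05 between the genotypes. Endothelial markers summed to 9.30 to 28.3 CPM and 16.8 to 52.3 CPM, with 1 of 6 at that threshold, and fibroblast markers to 2.79 to 85.9 CPM and 7.59 to 29.2 CPM, with 0 of 5. None had an adjusted p under 0.05, and the part of these cells in the genotype differences was not tested. The markers at 0 in some tumors included Cd3e, Cd3g, Cd79a, Ly6g, Cldn5 and Lum.

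Ribosome biogenesis genes spanned a wide range of levels in these tumors, read as TPM, which scale each gene by the length of its principal transcript and each tumor to the same total. Npm1, the nucleolar chaperone nucleophosmin, stood highest at 558 TPM (range 407 to 907) as the median over 14 tumors. It was followed by the 60S factor Rrp1 at 142 TPM (range 102 to 191), nucleolin (Ncl) at 141 TPM (range 107 to 212), fibrillarin (Fbl), the rRNA methyltransferase of box C/D particles, at 114 TPM (range 82.6 to 128), and the H/ACA protein Nhp2 at 108 TPM (range 88.6 to 137). The ranges of Rrp1, Ncl, Fbl and Nhp2 overlapped, so their order is not fixed, while Npm1 lay above all 4 in range. At the other end stood Mdn1, the very large AAA ATPase midasin of 60S assembly, at 1.72 TPM (range 0.894 to 4.62). Above it came the 60S factor Rrp1b at 3.32 TPM (range 1.72 to 6.18), the 60S AAA ATPase Nvl at 4.66 TPM (range 3.30 to 7.12), the processome protein Utp20 at 4.82 TPM (range 2.62 to 11.2) and the polymerase subunit Polr1e at 5.03 TPM (range 2.95 to 6.81), with overlapping ranges. Ncl and Nvl are scaled by annotated transcripts of 8202 and 9392 bases, most of which is not coding. The order depends on this choice. Scaled by coding length instead, Npm1 stayed first and was followed by Ncl, the small H/ACA protein Nop10 (from rank 10), Nhp2 and Rrp1, and Fbl was at rank 6. Of the lowest 5 by TPM, Mdn1 stayed last and Utp20 was at rank 58 of 59, while Rrp1b moved to 54, Polr1e to 51 and Nvl from 57 to 47.

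**Figure D1:**
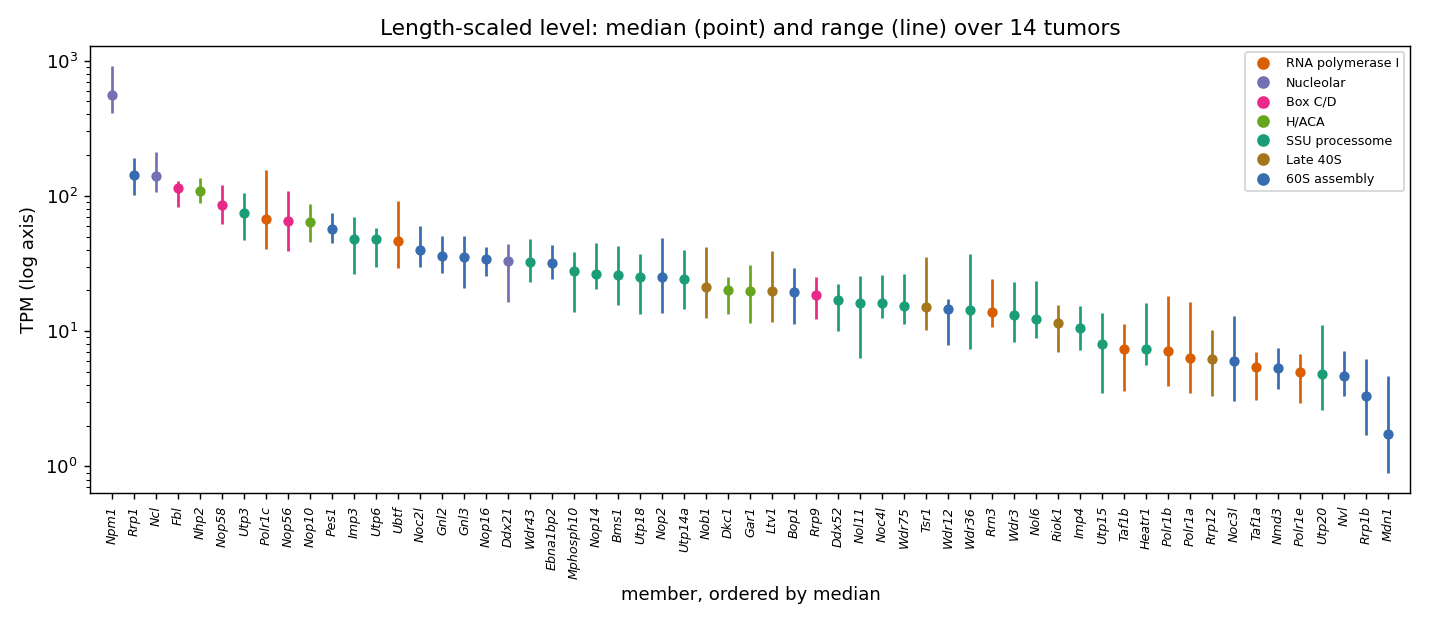
Level of each of 59 ribosome biogenesis genes in TPM (vertical axis, log scale), ordered by median; points are medians and lines the lowest to highest of 14 tumors, coloured by role. Npm1 at 558 TPM stands above the rest and Mdn1 at 1.72 TPM is lowest.

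Between the genotypes, ribosome biogenesis genes did not shift together in 1 direction. Of the 59 genes, 35 had a positive log2 fold change (59.3%, against 52.7% of all genes). The median log2 fold change (KPY-Setd2KO over KPY-Ctrl) of the 59 genes was 0.04, beside 0.03 over all 16836 genes. Scaled by library size alone instead of TMM, both medians were lower, at -0.10 and -0.11, and 3 of the 59 genes were higher (5.08%, against 4.92% of all genes) and 10 lower (16.9%, against 9.7%) at an unadjusted p under 0.05. Single genes went in both directions, from -0.74 for Mdn1 to 0.67 for Utp3, a processome protein. In edgeR's quasi-likelihood test no ribosome biogenesis gene passed an adjusted p of 0.05, and neither did any other gene (0% of those tested). At an unadjusted p under 0.05, 8 of 59 were higher in KPY-Setd2KO (13.6%, against 6.93% of all genes) and 8 were lower (13.6%, against 6.8%). These counts became 4 and 5 without KPY-Ctrl replicate 3, 4 and 3 without replicate 4, 4 and 4 without replicate 5, and 5 and 4 without KPY-Setd2KO replicate 4. Without KPY-Setd2KO replicate 3 there were 4 higher genes, and without replicate 1 or 2 there were 4 lower genes. The CPM of the genotypes overlapped for every one of the 59, where 0.57% of all genes had groups that did not overlap.

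DESeq2 and an edgeR fit that took the leukocyte-marker score into account did call genes. DESeq2 called 5 of 59 higher (Utp3, Rrp1, Ncl, Pes1 and Nop14, with 2.65% of all genes called in that direction) and 2 lower (Utp20 and Mdn1, with 1.94%). With the covariate, edgeR called 3 higher (Utp3, Rrp1 and Npm1, beside 3% of all genes) and 4 lower (Mdn1, Utp20, Polr1a and Polr1b, beside 2.26%). Both fits called Utp3, Rrp1, Utp20 and Mdn1. Leaving out 1 tumor at a time, DESeq2 called 1 to 7 of the genes. It called 4, 1 and 2 without KPY-Ctrl replicates 3, 4 and 5, and 4, 3, 4 and 4 without KPY-Setd2KO replicates 2, 3, 4 and 6. The covariate fit called 2 to 9, with 3, 2, 2 and 4 called without KPY-Ctrl replicates 2, 4, 5 and 6, and 4 and 2 without KPY-Setd2KO replicates 4 and 6. Utp3 was called in all 14 of these fits by each method. Of the other DESeq2 calls, Rrp1 was called in 13 of the 14 fits (not without KPY-Ctrl replicate 4), Ncl in 11 (not without KPY-Ctrl replicates 3, 4 or 5) and Utp20 in 10. Mdn1 was called in 5, Nop14 in 4 and Pes1 in 4, with adjusted p values up to 0.164, 0.175 and 0.174. With the covariate, Polr1b was called in all 14 fits, Rrp1 in 10, Mdn1 in 9, Polr1a in 8 and Utp20 and Npm1 in 7 each. DESeq2 called Polr1b in none. Limma voom called 0 of 59 and 0 genes in all, with 8 of 59 higher (5.88% of all genes) and 9 lower (7.38%) at an unadjusted p under 0.05.

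**Figure D2:**
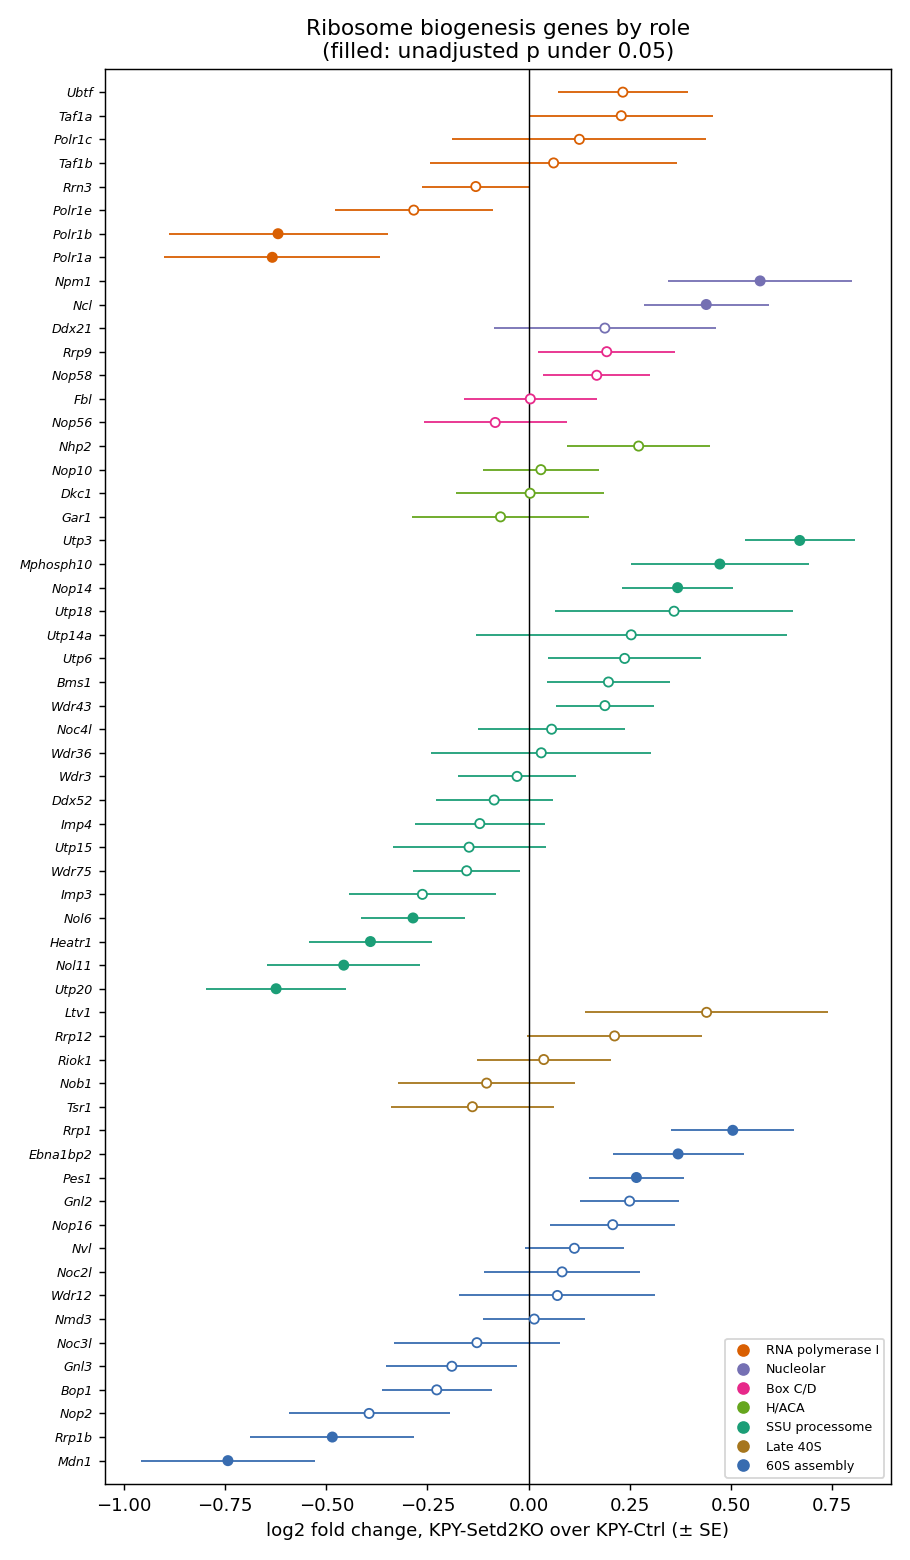
Log2 fold change of KPY-Setd2KO (8 tumors) over KPY-Ctrl (6 tumors) for 59 ribosome biogenesis genes from edgeR (horizontal axis; bars are ± 1 SE), grouped and coloured by role; filled points have an unadjusted p under 0.05. Filled points lie on both sides of 0, 8 on each. The widest span is within the SSU processome, from Utp20 (-0.62) to Utp3 (0.67), and 60S assembly runs from Mdn1 (-0.74) to Rrp1 (0.50).

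The RNA polymerase I machinery was mixed, and its 2 largest subunits had the lowest values. Of 8 genes, 2 were lower at an unadjusted p under 0.05, none was higher and 6 did not pass, with a median log2 fold change of -0.03. Polr1a, the largest and catalytic subunit (ENSMUSG00000049553.11, chromosome 6 from 71909053 to 71984935 on the plus strand, GRCm38), ranged from 31.3 to 82.4 CPM (median 59.7) in KPY-Ctrl and from 24.5 to 67.4 CPM (median 32.3) in KPY-Setd2KO. Polr1b, the second largest subunit (ENSMUSG00000027395.15, chromosome 2 from 129100995 to 129126594 on the plus strand), ranged from 20.1 to 42.5 CPM (median 30.01) in KPY-Ctrl and from 12.1 to 32.04 CPM (median 17.1) in KPY-Setd2KO. Of the knockout tumors, 7 of 8 were below the KPY-Ctrl median for each gene, and 5 of 8 were below every control for Polr1b but 2 of 8 for Polr1a. Polr1a had a log2 fold change of -0.63 (SE 0.27), with an unadjusted p of 0.0322 and an adjusted p of 0.312. Polr1b had a log2 fold change of -0.62 (SE 0.27), with an unadjusted p of 0.0378 and an adjusted p of 0.33. With the leukocyte-marker covariate the adjusted p was 0.033 for Polr1a and 0.0175 for Polr1b, while DESeq2 without it gave 0.209 and 0.235. The other 6 genes were Polr1c, a subunit shared with RNA polymerase III, the subunit Polr1e, the initiation factor Rrn3, the upstream binding factor Ubtf, and Taf1a and Taf1b of the promoter selectivity factor. Their log2 fold changes ran from -0.28 (SE 0.19) for Polr1e to 0.23 (SE 0.16) for Ubtf.

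The 3 abundant nucleolar proteins all had positive values, 2 of them at an unadjusted p under 0.05. Nucleolin (ENSMUSG00000026234.12, chromosome 1 from 86344719 to 86359400 on the minus strand) binds precursor rRNA. Ncl was 583, 695 and 799 CPM (lowest, median and highest) in KPY-Ctrl and 754, 945 and 1244 CPM in KPY-Setd2KO. Except for 1 tumor, every knockout lay above every control. Ncl had a log2 fold change of 0.44 (SE 0.15), with an unadjusted p of 0.0125 and an adjusted p of 0.235, and an adjusted p of 0.0162 in DESeq2. Npm1 was 387, 513 and 739.6 CPM (lowest, median and highest) in KPY-Ctrl and 571, 755 and 1200.1 CPM in KPY-Setd2KO; all 8 knockout tumors were above the control median and 4 were above the highest control. Npm1 (ENSMUSG00000057113.13, chromosome 11 from 33152287 to 33163206 on the minus strand) had a log2 fold change of 0.57 (SE 0.23), with an unadjusted p of 0.0245 and an adjusted p of 0.284. With the leukocyte-marker covariate its adjusted p was 0.0334. Npm1 is known for processed pseudogenes, and how reads shared with them were treated is not given in the sources used here. Ddx21, a nucleolar RNA helicase, had a log2 fold change of 0.19 (SE 0.28) and did not pass.

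Box C/D and H/ACA proteins showed no member past the unadjusted threshold. Among the 4 box C/D genes the values ran from -0.08 (SE 0.18) for the core protein Nop56 to 0.19 (SE 0.17) for Rrp9, which belongs to the U3 particle, and the smallest p, 0.223, was that of Nop58. Fibrillarin stood at 0.00 (SE 0.16). Among the 4 H/ACA genes, dyskerin (Dkc1), the pseudouridine synthase, stood at 0.00 (SE 0.18) and Nhp2 had the largest value, 0.27 (SE 0.18). Nhp2 was 50.9, 69.2 and 114 CPM (lowest, median and highest) in KPY-Ctrl and 71.6, 90.9 and 106 CPM in KPY-Setd2KO, and the groups overlapped widely. Leaving out 1 tumor moved the value of Nhp2 to 0.19 without KPY-Ctrl replicate 4 and to 0.44 without replicate 6. It moved that of Rrp9 to 0.11 without KPY-Ctrl replicate 3 and to 0.31 without replicate 6.

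The SSU processome held the gene with the smallest p of the 59. Of its 20 genes 3 were higher at an unadjusted p under 0.05 (Utp3, Nop14 and Mphosph10), 4 were lower (Utp20, Nol11, Heatr1 and Nol6) and 13 did not pass, around a median of 0.00. Utp3 was 54.9, 60.6 and 90.2 CPM (lowest, median and highest) in KPY-Ctrl and 89.1, 103 and 121 CPM in KPY-Setd2KO. Of the 6 controls 5 lay between 54.9 and 63.2 CPM, and only KPY-Ctrl replicate 6, at 90.2 CPM, reached the knockouts. Utp3, a gene without introns (ENSMUSG00000070697.4, chromosome 5 from 88554462 to 88556090 on the plus strand), was 1.59-fold higher, a log2 fold change of 0.67 (SE 0.14), with an unadjusted p of 0.000206 and an adjusted p of 0.116 in edgeR. Its adjusted p was 1.14e-05 in DESeq2 and 0.0132 with the leukocyte-marker covariate. The sequence of the Utp3 promoter is printed because it is the gene with the smallest p. It covers 250 bases before to 50 after the RefSeq start on GRCm38.p6, and capitals mark the Ets-type motif CCGGAAG, which it holds 2 times.
Utp3, chr5:88554212-88554511, plus strand: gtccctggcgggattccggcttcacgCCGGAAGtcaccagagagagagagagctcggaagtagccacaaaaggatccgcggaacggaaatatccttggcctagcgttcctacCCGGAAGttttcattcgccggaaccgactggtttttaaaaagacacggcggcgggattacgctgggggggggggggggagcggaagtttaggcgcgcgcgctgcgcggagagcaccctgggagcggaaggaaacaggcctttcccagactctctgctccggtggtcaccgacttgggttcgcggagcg

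Imp3, a U3-associated protein and the other gene of the list with 1 exon, had a log2 fold change of -0.26 (SE 0.18) and did not pass.

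Nop14, which has a role in 18S rRNA processing, ranged from 38.01 to 54.8 CPM (median 43.4) in KPY-Ctrl and from 47.9 to 69.8 CPM (median 58.2) in KPY-Setd2KO, and 5 of 8 knockouts exceeded all controls. It had a log2 fold change of 0.37 (SE 0.14), with an unadjusted p of 0.0173 and an adjusted p of 0.251, and 0.0492 as the adjusted p in DESeq2. Mphosph10, a U3 particle protein, ranged from 20.04 to 55.3 CPM (median 35.97) in KPY-Ctrl and from 42.2 to 66.1 CPM (median 47.5) in KPY-Setd2KO. All 8 knockouts were above the control median but only 2 above the highest control, and the log2 fold change was 0.47 (SE 0.22).

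Utp20, a very large scaffold of the processome (ENSMUSG00000004356.8, chromosome 10 from 88746607 to 88826804 on the minus strand), was the lowest of the class. Utp20 was 32.3, 39.4 and 53.5 CPM (lowest, median and highest) in KPY-Ctrl and 19.9, 25.4 and 39.2 CPM in KPY-Setd2KO. No knockout reached the control median, and 6 of 8 were below every control. It had a log2 fold change of -0.62 (SE 0.17), with an unadjusted p of 0.00262 and an adjusted p of 0.152, with an adjusted p of 0.0237 in DESeq2. Nol11 and Heatr1, processome proteins that also take part in RNA polymerase I transcription, had log2 fold changes of -0.46 (SE 0.19) and -0.39 (SE 0.15). Nol11 ranged from 35.3 to 48.3 CPM (median 41.2) in KPY-Ctrl and from 17.1 to 43.1 CPM (median 29.9) in KPY-Setd2KO. Heatr1 ranged from 34.9 to 56.2 CPM (median 49.3) in KPY-Ctrl and from 29.3 to 46.01 CPM (median 34.9) in KPY-Setd2KO. For Nol6 the log2 fold change was -0.29 (SE 0.13). These genes were lower in most knockout tumors, with 6, 4 and 3 of 8 below all controls for Nol11, Heatr1 and Nol6.

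Late 40S factors had no gene past the unadjusted threshold among the 5 measured. Ltv1, which has to leave the pre-40S particle before it matures, had both the largest value, 0.44 (SE 0.30), and the smallest p, 0.164. Ltv1 was 17.2, 28.6 and 43.9 CPM (lowest, median and highest) in KPY-Ctrl and 22.98, 37.96 and 69.3 CPM in KPY-Setd2KO. Leaving out 1 tumor moved the value of Ltv1 to 0.28 without KPY-Setd2KO replicate 4 and to 0.59 without KPY-Ctrl replicate 1. Nob1, the endonuclease that forms the 3′ end of 18S rRNA, stood at -0.10 (SE 0.22), and the export factor Rrp12 at 0.21 (SE 0.22). Tsr1, at -0.14 (SE 0.20), shares 32.3% of its exon bases with Srr on the opposite strand, and whether counting used strand is not given in the sources used here.

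The 15 genes of 60S assembly had 3 higher (Rrp1, Pes1 and Ebna1bp2) and 2 lower (Mdn1 and Rrp1b) at an unadjusted p under 0.05, and 10 that did not pass. Rrp1 was 129, 158 and 202 CPM (lowest, median and highest) in KPY-Ctrl and 190.0, 216 and 291 CPM in KPY-Setd2KO; 6 of 8 knockouts exceeded every control. Rrp1 (ENSMUSG00000061032.9, chromosome 10 from 78400384 to 78413043 on the minus strand) had a log2 fold change of 0.50 (SE 0.15), with an unadjusted p of 0.00491 and an adjusted p of 0.175, and an adjusted p of 0.0107 in DESeq2. Its paralog Rrp1b went the other way at -0.48 (SE 0.20), with 11.03 to 17.7 CPM (median 14.5) in KPY-Ctrl and 6.77 to 14.4 CPM (median 10.8) in KPY-Setd2KO. No Rrp1b value in a knockout reached the control median.

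Pes1, Bop1 and Wdr12 form 1 complex, PeBoW, in 28S rRNA maturation, yet their values differed. Pes1 ranged from 94.4 to 119.9 CPM (median 102) in KPY-Ctrl and from 112 to 149 CPM (median 117) in KPY-Setd2KO, with a log2 fold change of 0.27 (SE 0.12) and an adjusted p of 0.0481 in DESeq2, a call that most fits without 1 tumor lost. Bop1 stood at -0.23 (SE 0.14) and Wdr12 at 0.07 (SE 0.24), and neither passed. Ebna1bp2, an early 60S factor, had a log2 fold change of 0.37 (SE 0.16), and all 8 knockouts were above the control median of 57.5 CPM. Mdn1, which strips assembly factors from pre-60S particles (ENSMUSG00000058006.12, chromosome 4 from 32657119 to 32775217 on the plus strand), is the largest protein of the list. Mdn1 was 23.2, 27.2 and 42.8 CPM (lowest, median and highest) in KPY-Ctrl and 13.6, 17.6 and 29.2 CPM in KPY-Setd2KO. In 7 of 8 knockouts it was below every control, and the exception, KPY-Setd2KO replicate 5, had 29.2 CPM. Mdn1 had a log2 fold change of -0.74 (SE 0.21), with an unadjusted p of 0.00369 and an adjusted p of 0.162, and an adjusted p of 0.0388 in DESeq2.

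**Figure D3:**
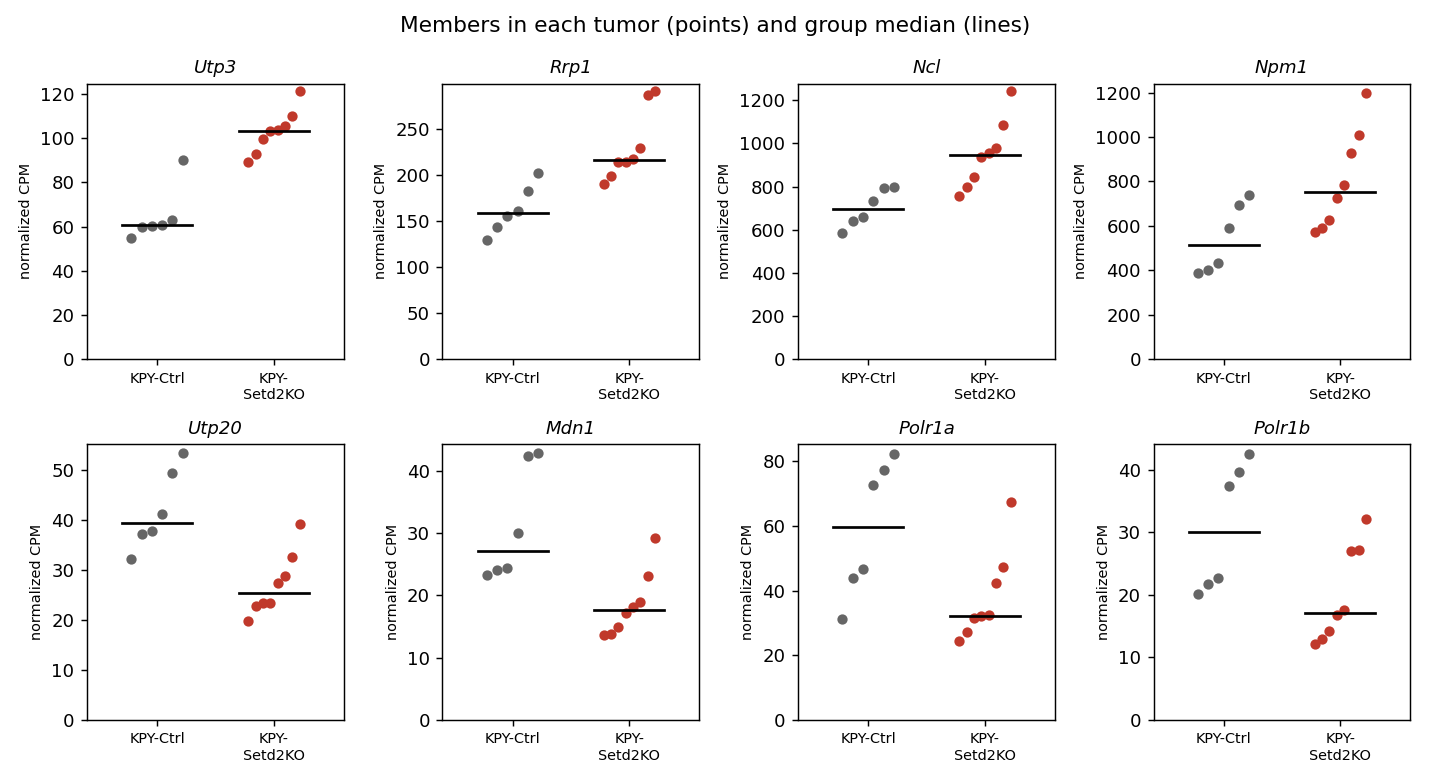
Normalized CPM (vertical axis, from 0) of 8 ribosome biogenesis genes in each of 6 KPY-Ctrl tumors (grey) and 8 KPY-Setd2KO tumors (red); lines are group medians. Utp3, Rrp1, Ncl and Npm1 (top) sit higher in the knockouts and Utp20, Mdn1, Polr1a and Polr1b (bottom) lower, with overlap in every panel.

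The split between higher and lower genes followed transcript length. The 8 lower genes had transcripts of 3158 to 17959 bases (median 5827). The 8 higher genes had 1629 to 8202 bases (median 2475), with Ncl as the only one of them above 2960. The coding length of Ncl is 2121 bases, so its place depends on the length used. Among the 30 genes at or under the median length, the median log2 fold change was 0.18, with 5 higher and 0 lower at an unadjusted p under 0.05. Among the 29 longer genes it was -0.12, with 3 higher and 8 lower. Over the 59 genes, Spearman's rho between log2 fold change and transcript length was -0.38, and -0.33 with coding length. The same relation was present in the other 13793 protein-coding genes tested, with rho of -0.18 and -0.22. These correlations run across genes of the same 14 libraries, and genes are not independent replicates. Leaving out 1 tumor at a time gave -0.41 to -0.31 for the 59 genes.

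Tumors of 1 genotype also differed in this respect. For each tumor a length trend was computed as Spearman's rho, over the other protein-coding genes, between log2 transcript length and the deviation from the gene's mean. It was -0.18, 0.07 and 0.29 (lowest, median and highest) in KPY-Ctrl and -0.19, -0.08 and 0.24 in KPY-Setd2KO. In the tumors high in the leukocyte-marker score it ran from -0.19 to 0.05, and in the low tumors from -0.16 to 0.29. The trend was thus not independent of the score, and how much the 2 measures share was not tested. The highest trends were in KPY-Ctrl replicates 4 and 5 and KPY-Setd2KO replicate 5, which were also the tumors highest in Mdn1 and Utp20 within their genotype. With the trend as a covariate, an alternative chosen after seeing the data, 5 of the 59 genes were higher (8.47%, against 7.15% of all genes) and 4 lower (6.78%, against 5.2%) at an unadjusted p under 0.05, and rho over the 59 genes was -0.23. Of the 16 genes at that threshold without the trend, 7 remained (Ncl, Utp3, Nop14, Rrp1, Utp20, Nol11 and Mdn1). The 9 others, Npm1, Mphosph10, Pes1, Ebna1bp2, Polr1a, Polr1b, Heatr1, Nol6 and Rrp1b, did not pass, while Ubtf (higher) and Polr1e (lower) did. In that fit Utp3 stood at 0.60, Utp20 at -0.49, Mdn1 at -0.56, Polr1a at -0.33 and Polr1b at -0.37. RNA integrity per tumor was not analysed here, and its part in this relation was not tested.

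**Figure D4:**
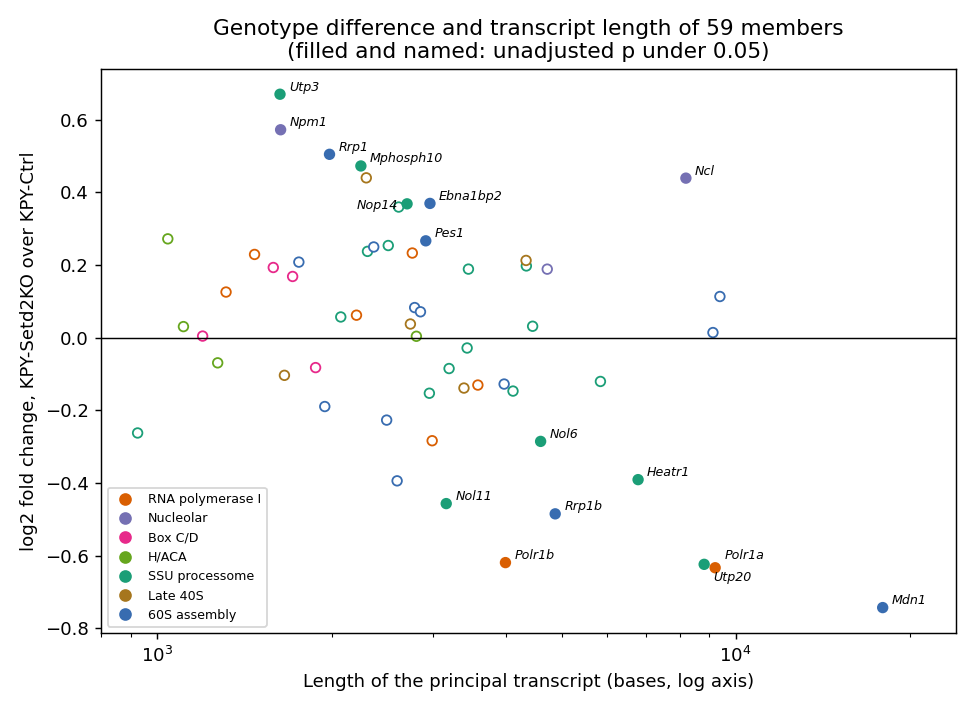
Log2 fold change of KPY-Setd2KO over KPY-Ctrl (vertical axis) against the length of the principal transcript in bases (horizontal axis, log scale) for 59 ribosome biogenesis genes, coloured by role; filled points have an unadjusted p under 0.05. The lower genes start at 3158 bases, and Ncl at 8202 bases (coding length 2121) is the only higher gene far to the right.

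Ribosome biogenesis genes followed the leukocyte-marker score in shares close to or below those of all genes. In the edgeR fit of genotype and score, 18 of 59 genes rose with the score (30.5%, against 28.3% of all genes) and 11 fell (18.6%, against 28.3%). Fold changes are per unit of the score, and because the scores leave a gap, they describe mainly the step between the low and the high tumors. The strongest rises were those of the processome protein Utp14a, 0.30 (SE 0.02, adjusted p 9.56e-08), the initiation factor subunit Taf1b, 0.22 (SE 0.03, adjusted p 3.62e-05), and Ltv1, 0.22 (SE 0.03, adjusted p 1.99e-05). Utp14a ranged from 23.6 to 71.6 CPM (median 38.7) in KPY-Ctrl and from 24.9 to 79.7 CPM (median 48.1) in KPY-Setd2KO, and each genotype held low and high values. Taf1b ranged from 7.77 to 15.2 CPM (median 11.2) in KPY-Ctrl and from 6.79 to 20.8 CPM (median 10.6) in KPY-Setd2KO.

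The most negative values were those of Polr1b at -0.20 (SE 0.02, adjusted p 9.18e-06), Polr1c at -0.19 (SE 0.04, adjusted p 0.00211), Polr1a at -0.18 (SE 0.03, adjusted p 0.000106) and the processome protein Wdr36 at -0.18 (SE 0.03, adjusted p 0.000253), which lay within 1 SE of Polr1a. Polr1c ranged from 41.2 to 129.7 CPM (median 56.2) in KPY-Ctrl and from 42.1 to 119 CPM (median 64.1) in KPY-Setd2KO. Ubtf fell as well, at -0.08 (SE 0.03, adjusted p 0.0163), whereas Polr1e rose, at 0.12 (SE 0.03, adjusted p 0.00134). Among nucleolar proteins Npm1 and Ddx21 rose, and of the box C/D and H/ACA genes Fbl and Dkc1 did. Of 20 processome genes 6 rose and 2 fell, of 5 late 40S genes 1 rose and 2 fell, and of 15 60S genes 5 rose and 3 fell.

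With library size alone in place of TMM, the median log2 fold change per unit over all genes moved from -0.01 to -0.08, and 6 of the 59 rose (10.2%, against 18.6% of all genes) and 23 fell (39%, against 40.1%). All 11 that fell with TMM fell there too. Utp14a, Taf1b, Ltv1, Utp18, Ddx21 and Wdr12 still rose, and Rrp1 changed sign. The score is built from the 12 leukocyte markers, so their own rise is no finding. All 11 epithelial markers fell with it, 9 of 12 macrophage markers rose and 9 of 14 proliferation markers rose. In bulk RNA, fewer cells of a type and less RNA per cell cannot be told apart, and the part of other cell types in these differences was not tested.

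**Figure D5:**
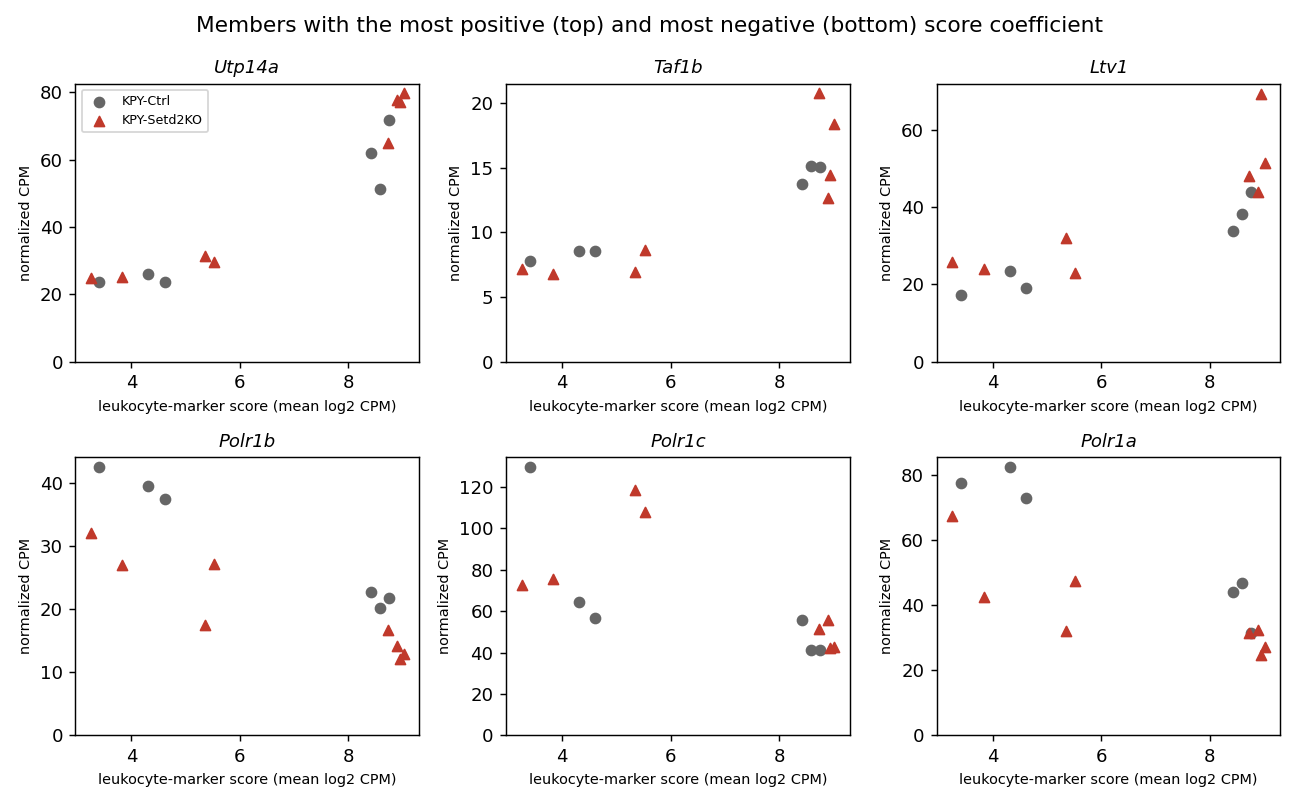
Normalized CPM (vertical axis, from 0) of 6 ribosome biogenesis genes against the leukocyte-marker score of the tumor (mean log2 CPM of 12 genes, horizontal axis) for KPY-Ctrl (grey circles) and KPY-Setd2KO (red triangles). Utp14a, Taf1b and Ltv1 are higher, and Polr1c lower, in each of the 7 tumors with scores above 8.42 than in any other, while Polr1b and Polr1a are lower there with some overlap.

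Within a genotype the ribosome biogenesis genes varied less than the median gene and only weakly together. The median within-genotype SD of log2 CPM was 0.31 for the 59 genes and 0.67 over all genes, which include many of lower level. After removal of genotype means, the mean pairwise Pearson r over 14 tumors was 0.12 among the 59 genes and 0.00 among all genes, on values that share tumors and normalization. It was 0.75 among Ncl, Npm1 and Ddx21, 0.32 among the box C/D genes, and -0.07 among the polymerase genes. With the score removed too, the nucleolar value was 0.43 and that of all 59 genes 0.18. The median deviation of the 59 genes from their means ran from -0.20 in KPY-Setd2KO replicate 7 to 0.20 in KPY-Setd2KO replicate 3.

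Other genes of the pathway were read from a list of 98 further ribosome biogenesis genes, all of them tested. None was called by edgeR, and the median log2 fold change was 0.08, beside 0.03 over all genes. At an unadjusted p under 0.05, 14 were higher (14.3%, against 6.93% of all genes) and 6 lower (6.12%, against 6.8%). DESeq2 called 6 of the 98, all higher, where it called 2.65% of all genes higher and 1.94% lower. The smallest p values were those of the processome protein Utp11, Znhit6, which takes part in box C/D particle assembly, and Fcf1, a processome protein with a PIN domain. Utp11 was 33.2, 39.4 and 41.9 CPM (lowest, median and highest) in KPY-Ctrl and 45.9, 51.3 and 57.5 CPM in KPY-Setd2KO, so that the groups did not overlap. This held for 1 of the 98 genes (1.02%, against 0.57% of all genes). Utp11 had a log2 fold change of 0.42 (SE 0.11), with an unadjusted p of 0.00143 and an adjusted p of 0.133. Znhit6 ranged from 13.4 to 18.7 CPM (median 14.4) in KPY-Ctrl and from 16.8 to 27.4 CPM (median 25.5) in KPY-Setd2KO, with a log2 fold change of 0.62 (SE 0.16). For Fcf1 the log2 fold change was 0.59 (SE 0.18). DESeq2 called these 3, with adjusted p values of 2.28e-05, 0.00329 and 0.0311.

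Of 7 regulators of ribosomal DNA, Myc, the transcription factor known to drive this pathway, ranged from 48.5 to 76.1 CPM (median 64.2) in KPY-Ctrl and from 43.5 to 93.2 CPM (median 59.5) in KPY-Setd2KO. Its log2 fold change was 0.04 (SE 0.20), within the spread between tumors. Mycn, its paralog, was low and varied widely, from 2.77 to 26.9 CPM (median 14.9) in KPY-Ctrl and from 0.258 to 11.7 CPM (median 3.08) in KPY-Setd2KO. It had a log2 fold change of -1.75 (SE 0.68), with an unadjusted p of 0.0213 and an adjusted p of 0.269, and no knockout reached the control median. Max, the partner of Myc, stood at 0.37 (SE 0.24) and Mybbp1a, a nucleolar Myb-binding protein, at -0.20 (SE 0.15), and neither passed.

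Promoter windows of the kind printed for Utp3 were read for 51 of the 59 genes and searched for 4 motifs. The Ets-type motif (either strand) was present for 20 of the 51 genes (39.2%) and for 18.4% of 11439 other genes tested that have a window. The E-box CACGTG, the site known for Myc and Max and identical on both strands, was present for 12 of 51 (23.5%) and for 11.05% of the other genes. GC boxes (GGGCGG, both strands) were present for 68.6% and 64.8%, and TATAAA (both strands) for 5.88% and 9.69%. Of the genes with an unadjusted p under 0.05 and a window, 1 of 7 higher and 3 of 7 lower genes held an E-box, and 3 of 7 higher and 1 of 7 lower genes held the Ets-type motif. The E-boxes of these 4 genes are shown in capitals with the bases around them inside the window.
Pes1, chr11:3963953-3964006, plus strand: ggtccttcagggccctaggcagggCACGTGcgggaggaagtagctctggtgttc
Mdn1, chr4:32657133-32657168, plus strand: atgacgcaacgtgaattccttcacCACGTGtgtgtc
Utp20, chr10:88826765-88826801, minus strand: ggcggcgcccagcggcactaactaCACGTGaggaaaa
Nol11, chr11:107189395-107189448, minus strand: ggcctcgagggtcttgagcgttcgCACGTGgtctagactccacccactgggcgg
With the start base counted as 0, they begin at base 2 in Pes1, 38 in Mdn1, 37 in Utp20 and -43 in Nol11. A match of letters is not evidence of binding.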

How the data were processed

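The authors deposited 1 table of estimated counts, whole numbers without normalization for each Ensembl gene, which they made with Salmon 0.8.2 and GRCm38.p5 (submitters' processing notes), for 6 KPY-Ctrl and 8 KPY-Setd2KO tumors. All columns were matched to a sample by name. Symbols, coordinates and lengths came from GENCODE M21 (GRCm38), and promoters from RefSeq (GRCm38.p6). Principal transcripts follow APPRIS tags.

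The genotype comparison ran in R 4.3.3 with edgeR 4.0.16 (TMM, filterByExpr, robust quasi-likelihood test of genotype, Benjamini-Hochberg adjustment over all genes tested). Log2 CPM used a prior count of 2. Alternatives were DESeq2 1.42.0, limma 3.58.1 (voom), other scalings and filters, covariates and leaving out each tumor. TPM were recomputed from the counts. The script was tested on simulated counts. The lowest total was 20072236 counts, and p-values take tumors as independent. The genes, lists and tests were chosen with earlier results of these data known. Named genes were Setd2, the members past an unadjusted p of 0.05 or called by DESeq2 or with the covariate, in each class the smallest p and largest change, the 3 most positive and negative score coefficients, the 5 highest and lowest levels, the 3 smallest p of the other lists, and Myc. Nob1, Bop1 and the other members named beside these were chosen after their values were seen. An allele shared by both groups and a marker gene are not reported here.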

Additional observations from a re-analysis of the deposited data

Results flagged for a closer look

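In each genotype the log2 CPM of each of the 59 genes was searched for a tumor far from the rest (Dixon's 95% critical value). It set apart 3 of 118 groups of values, where chance alone sets apart about 5%. Utp3 was 6.50 in KPY-Ctrl replicate 6, with the other controls at 5.78 to 5.98. Nob1 was 5.42 in KPY-Ctrl replicate 3, with the other controls at 4.58 to 4.87. Bop1 was 4.59 in KPY-Setd2KO replicate 7, with the other knockout tumors at 5.01 to 5.28. Without KPY-Ctrl replicate 6 the log2 fold change of Utp3 was 0.78, the highest of the values obtained by leaving out 1 tumor, which started at 0.62.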

How the results depend on the processing

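The fold change of 20 ribosome biogenesis genes was followed through every alternative. They were the genes past an unadjusted p of 0.05 in the genotype-only edgeR fit and, in each class, the smallest p and largest change. No direction changed among them, but they were picked from these values and the alternatives refit the same tumors, so this is not independent support. In 30 cases a gene passed an adjusted p of 0.05 that it missed in the genotype-only edgeR fit, and in 470 it stayed on the same side. Called genes of the 59 numbered 7 with DESeq2 (11.9%, against 4.59% of all genes), 7 in edgeR given the leukocyte-marker score (11.9%, against 5.26%), 14 with both (23.7%, against 13.8%) and 2 with the leukocyte-marker and length-trend covariates (3.39%, against 2.7%), where edgeR on genotype alone called 0, and the same fits called 6, 9, 17 and 4 of the 98 other biogenesis genes. Genes at an unadjusted p under 0.05 numbered 3 higher with library size only (median log2 fold change -0.10, beside -0.11 over all genes, and 10 lower), 4 higher without the filter (6.78%, against 5.84% of all genes), and 5 higher (8.47%, against 7.15%) and 4 lower (6.78%, against 5.2%) with the length-trend covariate. Over all genes, library size only changed the split at that threshold from 6.93% higher and 6.80% lower to 4.92% and 9.70%. With library size only, 23 genes fell (39%, against 40.1% of all genes) and 6 rose (10.2%, against 18.6%) with the leukocyte-marker score. Leaving out 1 tumor at a time gave 4 to 10 genes higher (4 without KPY-Ctrl replicate 3, 4 or 5) and 3 to 9 lower (lowest without KPY-Ctrl replicate 4), a median of 0.00 to 0.08, 8 to 12 falling and 16 to 20 rising with the score, and 2 to 9 called with the covariate and 1 to 7 by DESeq2. Why the counts move between these fits was not tested. Replicate numbers are shared by the genotypes, and the deviations of tumors with the same number correlated from -0.66 to 0.66. The correlation was positive for numbers 1, 2 and 5, whose tumors were both high or both low in the leukocyte-marker score. It was negative for numbers 3, 4 and 6, whose tumors differed in the score. The correlations therefore cannot decide whether the numbers pair the tumors. With the replicate block, which leaves out the KPY-Setd2KO tumors without a partner, 5 genes were higher (8.47%, against 5.36% of all genes). In that fit 7 genes were lower (11.9%, against 6.11%). What depth limits was not tested.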
